A study of Mus musculus with 12 samples.

Results

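The 10 serotonin (5-HT) receptor genes described here, Htr1a, Htr1b, Htr1f, Htr2a, Htr2c, Htr3a, Htr4, Htr5a, Htr6 and Htr7, were taken by symbol from a table of 47729 genes measured in the mouse amygdala. All 10 had a row in the table, and all 10 passed the filter of at least 10 reads in total over 11 mice. The libraries came from 12 untreated female mice of the inbred strain C57/BL6, matched in age, whose genotypes are nearly the same, with 1 library of both amygdalae per mouse. Each mouse had been tested for social interaction in a box of 3 chambers (SIT), for avoidance of the light (LD) and on an elevated plus maze (EPM) before rapid decapitation. By its label for predicted anxiety state, a mouse was less anxious (3 mice: 3, 7 and 12), anxious (4 mice: 1, 4, 8 and 11) or more anxious (4 mice: 2, 6, 9 and 10), and mouse 5 had no state and entered no comparison of groups. The study had cut these states from the second principal component of the same expression values, so that a difference in a gene between the states is not independent of how the states were made. The 7 behavior measures in the labels were taken without regard to expression. The states do not follow these measures in every mouse. Of the mice with a state, more anxious mouse 6 had the most time (46.6%) and distance (41.9%) in the light. It also had the most open-arm time (29.2%).

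Serotonin reaches the amygdala through axons of neurons whose cell bodies lie in the raphe nuclei of the brainstem, and the amygdala's own cells carry the receptors. All but one family of these receptors couple to G proteins. The 5-HT1 and 5-HT5 receptors act through Gi and lower cAMP, the 5-HT2 receptors act through Gq and release calcium, and the 5-HT4, 5-HT6 and 5-HT7 receptors act through Gs and raise cAMP. Htr3a instead encodes a subunit of a ligand-gated cation channel. Drugs that act on serotonin signaling are in wide use against anxiety, and 5-HT1A and 5-HT2C receptors are among the best studied in tests of anxiety in rodents.

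Totals ran from 31745630 to 45142355 estimated counts over the 11 mice (median 36578626), and the receptors were counted with between 45 (Htr1f) and 5867 (Htr2c) estimated counts per mouse. The tissue label was checked against marker genes. The summed level of 6 markers of basolateral and cortical-type excitatory neurons was 1056 to 1952 CPM (counts scaled to a common library size) and that of 6 markers of central amygdala neurons 53.2 to 130 CPM. Among the raphe markers, Fev (0 to 2 counts) and the serotonin transporter Slc6a4 (1 to 10 counts) were near 0. Tph2 had 10 to 84 counts, and the summed level of these 3 markers was at most 2.50 CPM. Markers listed for neighboring tissue were present as well. Their summed levels were 53.7 to 135 CPM for 4 thalamic markers and 23.5 to 68.8 CPM for 5 hippocampal markers. Slc17a6 made up most of the thalamic sum, with state means of 72.4 to 85.6 CPM. Tcf7l2 had state means of 5.19 to 5.87 CPM and Lef1 3.08 to 3.74 CPM, and Gbx2 had 1 to 25 counts. The sum of 5 pituitary markers was 54.1 CPM in mouse 4 and 1.31 to 10.8 CPM in the others, and that of 5 hypothalamic markers 23.8 CPM in mouse 6 and 0.979 to 8.75 CPM in the others. The part of such tissue in the levels of the receptors was not tested. In bulk tissue, fewer cells of a type and less RNA per cell cannot be told apart.

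Htr2c and Htr1b were the receptors with the smallest p-values across the states, and the 250 bases before their RefSeq start sites are shown for that reason, read 5′ to 3′ on the strand of the gene. The Htr2c sequence lies on the plus strand of GRCm38.p6 at chrX:146962263-146962512, and the Htr1b sequence on the minus strand at chr9:81633833-81634082. Capitals mark the CCAAT box in its reverse orientation, ATTGG.

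Htr2c: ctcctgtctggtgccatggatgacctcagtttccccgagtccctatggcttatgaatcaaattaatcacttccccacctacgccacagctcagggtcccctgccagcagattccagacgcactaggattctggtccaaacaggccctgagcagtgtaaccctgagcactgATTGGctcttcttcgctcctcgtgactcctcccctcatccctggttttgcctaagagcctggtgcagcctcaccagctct

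Htr1b: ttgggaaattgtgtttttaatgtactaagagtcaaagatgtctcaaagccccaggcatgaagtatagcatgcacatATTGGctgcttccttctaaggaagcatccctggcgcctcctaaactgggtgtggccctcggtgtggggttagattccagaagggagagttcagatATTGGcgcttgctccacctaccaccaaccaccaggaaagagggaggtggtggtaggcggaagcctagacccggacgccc

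In all, 5 motifs were searched on both strands of these upstream sequences. The TATA box was searched as the letters TATAAA, the GC box with the letters GGGCGG and the core of the cAMP response element as its letters TGACG. The E-box was searched with the letters CACGTG, and the CCAAT box was added after the sequences had been read. No motif is contained in another. The reverse CCAAT box begins 80 bases before the Htr2c start, and in Htr1b it begins 79 and 174 bases before the start. Of 32851 upstream sequences of the same length in the RefSeq table, 33.8% hold CCAAT on either strand. The other 4 motifs, held by 12.4% (TATA box), 32.7% (GC box), 17.8% (cAMP response element core) and 6.02% (E-box) of all sequences, were not among the letters of the Htr2c and Htr1b sequences. Elsewhere among the receptors, the GC box was found upstream of Htr1a, Htr2a and Htr6, and the cAMP response element core upstream of Htr7.

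Levels of the receptors were compared as CPM per kb of exons. Htr2c, which lies at chrX:146962513-147197277 and encodes a Gq-coupled receptor whose mRNA is edited in the brain, had a mean of 13.9 CPM per kb ± 1.84 (SD, n = 11 mice) and made up 39.0% of the sum over the 10 receptors. It stood above each of the other receptors in every mouse, and its lowest mouse (11.2 CPM per kb) was above the highest mouse of Htr3a, the next in order (7.60 CPM per kb). Htr3a (chr9:48899213-48911099), the channel subunit, had 5.14 CPM per kb ± 1.06 (SD, n = 11).

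A middle group of 4 receptors came next. Htr1a (chr13:105443639-105448122), a Gi-coupled receptor present both on raphe neurons and on their targets, had 3.93 CPM per kb ± 0.643 (SD, n = 11). The Gs-coupled Htr7 (chr19:35958734-36057507) had 3.76 CPM per kb ± 0.720, the Gi-coupled Htr5a (chr5:27842149-27855088) 2.90 ± 0.237, and Htr1b (chr9:81628291-81633828), which restrains transmitter release from axon terminals, 2.54 ± 0.675. The order within this group was not fixed from mouse to mouse. Htr1a was above Htr7 in 7 of 11 mice, Htr7 above Htr5a in 9 and Htr5a above Htr1b in 8, and all neighbors from Htr3a to Htr1b overlapped in range, although Htr3a was above Htr1a in 11 of 11 mice.

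The lowest 4 receptors were near 1 CPM per kb. Htr6 (chr4:139061108-139075570), Gs-coupled and mostly found in the brain, had 1.16 CPM per kb ± 0.270 (SD, n = 11). All 11 mice had more Htr1b than Htr6, and these ranges did not overlap. Htr1f (chr16:64924729-65105854), the Gi-coupled receptor targeted by the migraine drug lasmiditan, had 0.813 CPM per kb ± 0.225. Htr2a (chr14:74640840-74709494), the Gq-coupled target of psychedelics, had 0.794 ± 0.180, and the Gs-coupled Htr4 (chr18:62324204-62496577) 0.758 ± 0.289. Htr1f, Htr2a and Htr4 did not differ beyond their spread, since Htr1f was above Htr2a in 7 of 11 mice and Htr2a above Htr4 in 6. All coordinates of genes are those of GENCODE M21 on GRCm38.

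The length taken for a gene moved one of these levels by more than its spread. With the longest transcript (4883 bases) in place of all exons (9328 bases), Htr2c had 26.6 CPM per kb and remained first. Htr7 and Htr1a exchanged places, as did Htr4 and Htr2a.

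**Figure D1:**
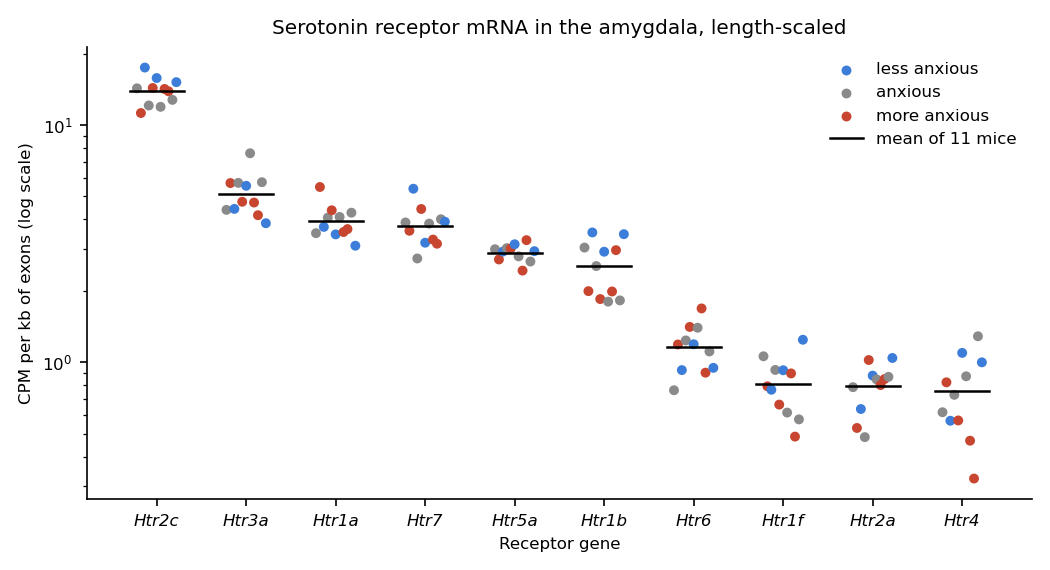
Level of each receptor as CPM per kb of exons on a log axis, with 1 point per mouse colored by predicted anxiety state and a black line at the mean of 11 mice. Htr2c stands apart at 11.2 to 17.5 CPM per kb, and the lowest 4 receptors lie between 0.323 and 1.68.

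The receptors varied more from mouse to mouse than most genes of at least 1 mean CPM. The median coefficient of variation was 21.6% over the 10 receptors and 14.3% over 15891 such genes, and 8 of the 10 receptors were above the latter. Htr4 varied most (38.1%) and Htr5a least (8.16%), with Htr2c at 13.2%. Counting error is part of this spread and weighs most on Htr1f, Htr6 and Htr4, whose lowest mice had 45, 62 and 57 estimated counts.

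The states were then compared with edgeR's quasi-likelihood F-test, fitted on 26963 genes with the score on the first principal component as a covariate. None of the 10 receptors was called at an adjusted p under 0.05 for any change across the 3 states, where 0.00742% of all genes were called. At an unadjusted p under 0.05, 2 of 10 receptors (Htr2c and Htr1b) passed, against 6.35% of all genes. The likelihood ratio test of DESeq2 called 0 receptors as well, where 1.36% of the genes with an adjusted p were called, and there 3 receptors had an unadjusted p under 0.05 (Htr4 being the third), against 4.96% of all genes in that fit. For more anxious against less anxious mice, 0 receptors were called (background 0.0445%) and 3 had an unadjusted p under 0.05 (Htr1b, Htr2c and Htr4, all lower; background 8.83%). For anxious against less anxious mice the numbers were 0 (background 0.00371%) and 2 (Htr2c and Htr1b, both lower; background 4.74%), and for more anxious against anxious mice 0 (background 0%) and 1 (Htr4, lower; background 4.57%). Over the 10 receptors, the median log2 fold change of more against less anxious mice was -0.14, with 3 receptors above 0, compared with 0.0037 over all genes tested.

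Htr2c had a lower mean in the anxious and the more anxious mice than in the less anxious mice. The less anxious mice 3, 7 and 12 had 163, 147 and 141 CPM. The anxious mice 1, 4, 8 and 11 had 133, 113, 111 and 119 CPM, and the more anxious mice 2, 6, 9 and 10 had 104.8, 134, 132 and 129 CPM. Each less anxious mouse was thus above each of the other 8 mice. Among 15891 genes of at least 1 mean CPM, 4.75% had every more anxious mouse below every less anxious mouse (5.27% above), and 2.41% had every anxious mouse below every less anxious mouse (2.96% above). Htr2c was the 1 receptor of 10 with either pattern. Its log2 fold change was -0.31 ± 0.104 (SE) for anxious and -0.25 ± 0.104 for more anxious mice, both against less anxious mice (edgeR, unadjusted p = 0.00951 and 0.0337, adjusted p = 0.987 and 0.515). Across the 3 states, Htr2c had an unadjusted p of 0.0252 and an adjusted p of 0.707 by edgeR. With the order of the states as a number, its unadjusted p by edgeR was 0.0704. The small differences between the anxious and more anxious mice (log2 fold change 0.07 ± 0.0952) lay within the spread. Across the states, edgeR gave Htr2c an unadjusted p of 0.0106 (without mouse 2) to 0.143 (without mouse 7) with 1 mouse left out, under 0.05 in 8 of 11 fits, and without mouse 2 the difference between more and less anxious mice was -0.17 (unadjusted p = 0.0958).

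Htr1b had a similar order of the states with more overlap. The less anxious mice 3, 7 and 12 had 16.6, 13.8 and 16.4 CPM. The anxious mice 1, 4, 8 and 11 had 14.4, 12.0, 8.50 and 8.61 CPM, and the more anxious mice 2, 6, 9 and 10 had 9.41, 8.72, 9.38 and 14.02 CPM. Mouse 1 and mouse 10 therefore reached the level of less anxious mouse 7, and the other 6 of those 8 mice were below all less anxious mice. The log2 fold change against less anxious mice was -0.53 ± 0.191 (SE) in more anxious and -0.45 ± 0.192 in anxious mice (edgeR, unadjusted p = 0.0146 and 0.0343, adjusted p = 0.426 and 0.987). Across the 3 states the unadjusted p was 0.0329 and the adjusted p 0.732 by edgeR. With 1 mouse left out, the unadjusted p of Htr1b was 0.00771 (without mouse 10) to 0.146 (without mouse 7), under 0.05 in 5 of 11 fits, and without mouse 11 the difference between anxious and less anxious mice was -0.28 (unadjusted p = 0.141). The exons of Htr1b overlap those of the antisense gene D430036J16Rik on the other strand, which had 64 to 189 estimated counts in the 11 mice and an edgeR p of 0.920 across the states. The library kit keeps the strand of the RNA, but since the sources used here do not state whether the counting used it, reads of this pair of genes may not be fully separated.

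Htr4 had its lowest mean in the more anxious mice. The less anxious mice 3, 7 and 12 had 2.78, 5.37 and 4.90 CPM, the anxious mice 1, 4, 8 and 11 had 3.02, 3.57, 4.28 and 6.31 CPM, and the more anxious mice 2, 6, 9 and 10 had 4.03, 2.79, 2.29 and 1.59 CPM. The states overlapped, with mouse 3 among the more anxious mice and mouse 2 among the others. The log2 fold change was -0.75 ± 0.328 (SE) for more against less anxious and -0.69 ± 0.305 for more anxious against anxious mice (edgeR, unadjusted p = 0.0414 and 0.0413, adjusted p = 0.539 and 0.999). Its edgeR p across the 3 states was 0.0680. With 1 mouse left out, the former ran from -0.995 (without mouse 2) to -0.56 (without mouse 10), with unadjusted p-values from 0.00772 to 0.155. The latter ran from -0.94 (without mouse 2) to -0.32 (without mouse 11), with unadjusted p-values from 0.00772 to 0.238.

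**Figure D2:**
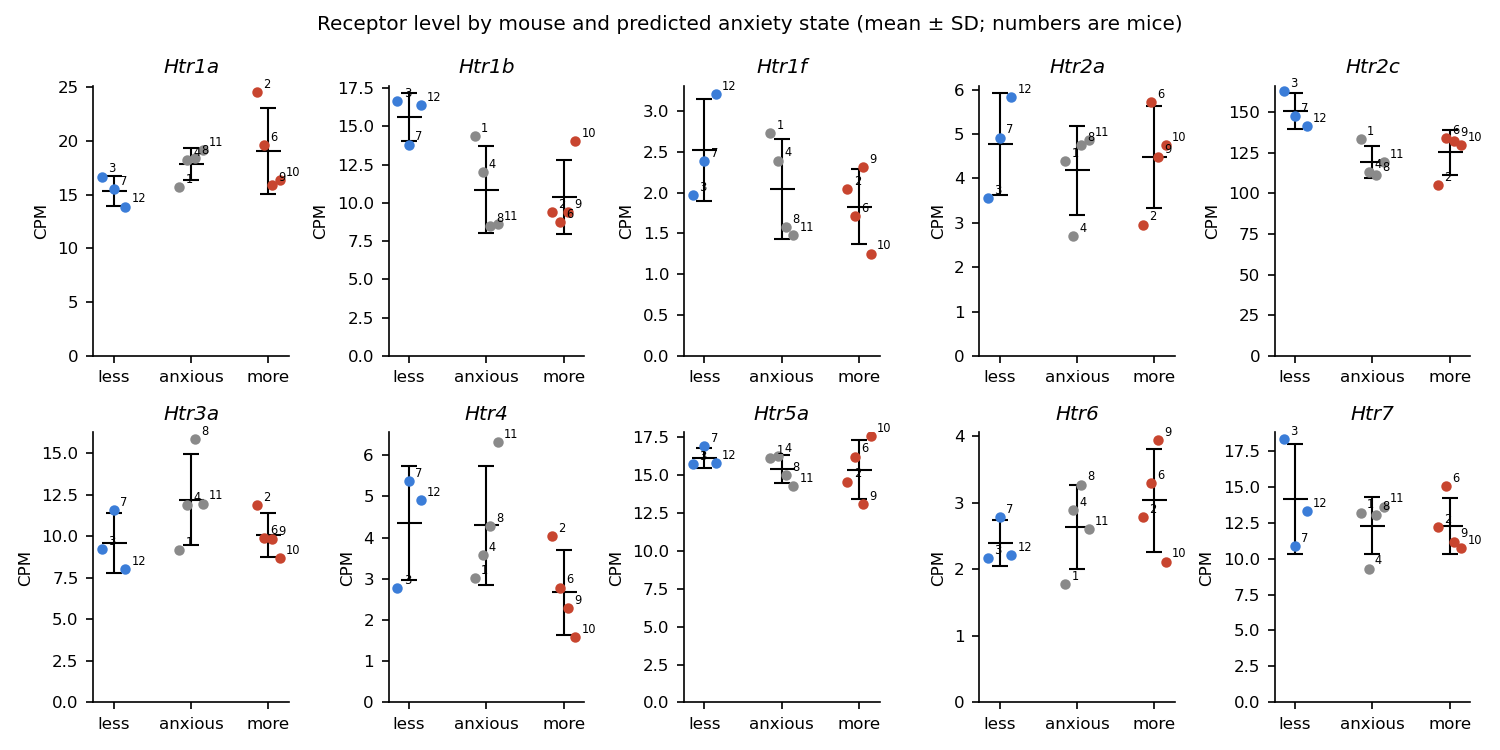
CPM of each receptor in the 11 mice by predicted anxiety state, with 1 numbered point per mouse and the mean ± SD of each state in black on axes that start at 0. Htr2c is the panel in which all 3 less anxious mice (141 to 163 CPM) lie above the other 8 (104.8 to 134 CPM).

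The other 7 receptors had unadjusted p-values above 0.05 in each comparison of states. Of the Gi-coupled receptors, Htr1a had the opposite sign to Htr1b, with 15.4 CPM ± 1.40 (SD, n = 3) in less anxious, 17.9 ± 1.50 (n = 4) in anxious and 19.1 ± 4.01 (n = 4) in more anxious mice. The range of the more anxious mice, from 15.9 to 24.6 CPM, began within that of the less anxious mice (13.9 to 16.7 CPM), and its upper end was mouse 2. The log2 fold change of Htr1a for more against less anxious mice was 0.29 ± 0.154 (SE, edgeR, unadjusted p = 0.0836) and ran from 0.16 (without mouse 2) to 0.40 (without mouse 3) with 1 mouse left out, with an unadjusted p under 0.05 in 3 of those 11 fits. Htr1f had 2.52 CPM ± 0.628 in less anxious and 1.83 ± 0.457 in more anxious mice (log2 fold change -0.45 ± 0.287, SE, edgeR, unadjusted p = 0.140), with a log2 fold change of -0.25 without mouse 12 and -0.62 without mouse 3. Htr5a was the steadiest, with state means of 16.1, 15.4 and 15.4 CPM and a log2 fold change of -0.09 ± 0.122 for more against less anxious mice (-0.18 without mouse 10 and -0.0073 without mouse 9).

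Htr3a was highest in the anxious mice, at 12.2 CPM ± 2.75 (SD, n = 4) against 9.60 ± 1.79 (n = 3) in less anxious and 10.1 ± 1.32 (n = 4) in more anxious mice. Anxious mouse 8 was its highest (15.8 CPM) and less anxious mouse 12 its lowest (8.03 CPM), and the states overlapped. Of 5 markers of caudal ganglionic eminence interneurons, 4 had a positive log2 fold change in anxious against less anxious mice. In more anxious against anxious mice, 1 of the 5 did. Among them, Calb2 had means of 64.7, 90.6 and 52.9 CPM in less anxious, anxious and more anxious mice. In the same order, Vip had 26.0, 25.8 and 24.6 CPM and Adarb2 26.7, 28.1 and 24.5 CPM. Cnr1 had 192, 181 and 167 CPM and Reln 74.7, 77.3 and 93.7 CPM. The summed level of the 5 markers overlapped between the states. It was 347 to 454 CPM in less anxious, 379 to 418 CPM in anxious and 319 to 422 CPM in more anxious mice. The part of these cells in the values of Htr3a was not tested. Htr2a had state means of 4.77, 4.18 and 4.48 CPM with SDs of 1.15, 0.9995 and 1.15, in the order less anxious, anxious and more anxious. In the same order, Htr6 had 2.39, 2.64 and 3.03 CPM with SDs of 0.344, 0.632 and 0.776, and Htr7 had 14.1, 12.3 and 12.3 CPM with SDs of 3.81, 2.01 and 1.94. The SE of the log2 fold change between more and less anxious mice was 0.161 for Htr3a, 0.261 for Htr2a, 0.242 for Htr6 and 0.197 for Htr7. In the same order of receptors, the unadjusted p-values were 0.938, 0.665, 0.233 and 0.425 (edgeR). The sign of the small difference of Htr2a, Htr3a and Htr7 between more and less anxious mice turned when 1 mouse was left out, and the log2 fold change of Htr6 (0.30 ± 0.242, SE) was 0.019 without mouse 9.

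**Figure D3:**
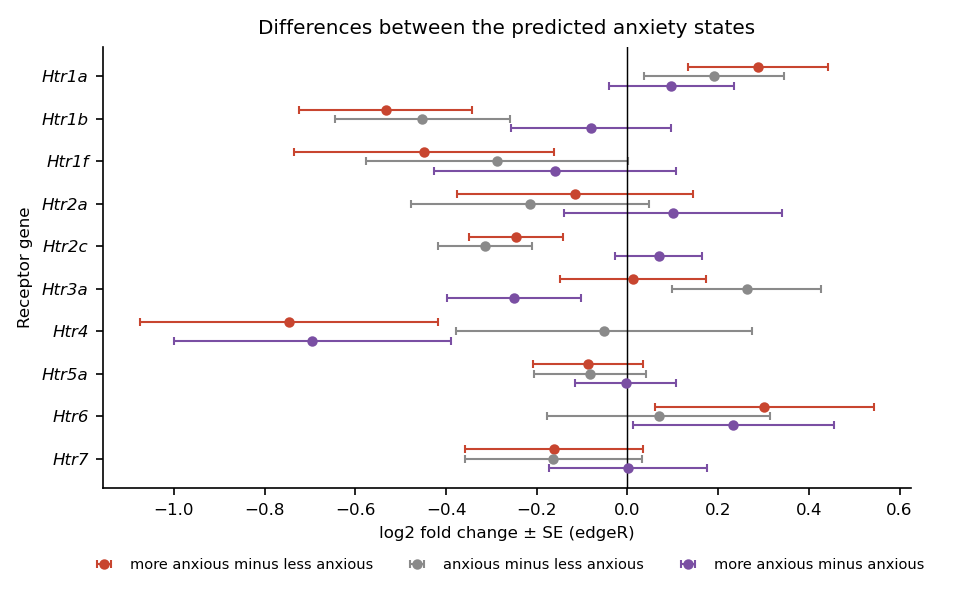
log2 fold change ± SE of each receptor for the 3 comparisons of predicted anxiety states (edgeR, first principal component as covariate), with 0 as a vertical line. Htr1b and Htr2c lie below 0 against less anxious mice (-0.53 and -0.25 in more anxious mice), and Htr4 lies below 0 in both comparisons of the more anxious mice (-0.75 and -0.69).

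No marker of another cell type was called across the states by edgeR, whereas DESeq2 called Kcnj13, Slc1a3, Tbr1, Prl and Gh. The summed levels of some marker lists were ordered like Htr2c and Htr1b. The choroid plexus, the epithelium of the ventricles, is known for a high level of Htr2c. The summed level of 11 choroid plexus markers was 21.6 to 29.8 CPM in less anxious, 17.0 to 19.3 CPM in anxious and 14.9 to 20.5 CPM in more anxious mice, so that the less anxious mice did not overlap the others. The summed level of 5 astrocyte markers did not overlap either. It was 1063 to 1298 CPM in less anxious, 894 to 1047 CPM in anxious and 795 to 1011 CPM in more anxious mice. For the sums of central amygdala, endothelial and pituitary markers, the less anxious mice overlapped the anxious but not the more anxious mice. No share over sums of other genes is given here, so these separations are a description only. All 5 astrocyte markers had negative log2 fold changes in both comparisons with less anxious mice, and 1, Slc1a3, had an unadjusted p under 0.05 across the states by edgeR (adjusted p = 0.494; DESeq2, adjusted p = 0.0290). Of the 11 choroid plexus markers, 1 (Kcnj13) had an unadjusted p under 0.05 across the states (6.35% of all genes), 3 had one for more against less anxious mice (all lower; 8.83% of all genes), and 4 had a log2 fold change above 0 in that comparison. Kcnj13, a potassium channel of this epithelium, had 4.20 CPM ± 0.955 (SD, n = 3) in less anxious, 0.774 ± 0.588 in anxious and 0.459 ± 0.496 in more anxious mice (edgeR, unadjusted p = 0.00368, adjusted p = 0.504; DESeq2, adjusted p = 0.000631). Ttr, its most abundant secreted product, was at 39 to 222 estimated counts with means of 2.66, 3.14 and 2.13 CPM. None of the 11 markers was at 0 in every mouse. Estimated counts were low for Otx2 (0 to 15), Slc4a5 (1 to 17), Kcne2 (4 to 23), Folr1 (3 to 29) and Aqp1 (12 to 32).

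Striatal-type neurons are known for Htr1b, which their axons carry, and border the amygdala. The summed level of 8 of their markers was 184 to 449 CPM in less anxious, 129 to 237 CPM in anxious and 160 to 297 CPM in more anxious mice, with the highest value in mouse 12. All 8 had a negative log2 fold change in both comparisons with less anxious mice, and none was at 0 in every mouse. An unadjusted p under 0.05 was found for 6 of 8 in anxious against less anxious mice (4.74% of all genes), for 1 of 8 in more against less anxious mice (8.83%) and for 4 of 8 across the states (Drd1, Rgs9, Gpr6 and Rarb; 6.35%). The sum of the 6 central amygdala markers was 110 to 130 CPM in less anxious, 53.2 to 122 CPM in anxious and 61.4 to 90.9 CPM in more anxious mice. Pdyn made up much of it, with means of 54.1, 26.2 and 21.9 CPM, and 2 of the 6 markers had a positive log2 fold change in anxious and 1 of 6 in more anxious mice against less anxious mice. The sum of 5 endothelial markers was 98.4 to 142 CPM in less anxious, 71.7 to 123 CPM in anxious and 69.4 to 89.9 CPM in more anxious mice. All 5 endothelial and all 5 oligodendrocyte markers had negative log2 fold changes in both comparisons with less anxious mice. All 5 microglia markers had negative ones in more against less anxious mice, with 1 at an unadjusted p under 0.05 (8.83% of all genes). In anxious against less anxious mice, 4 of these 5 were negative. The excitatory neuron markers had the other sign, with 5 of 6 above 0 for more against less anxious mice, 3 of them at an unadjusted p under 0.05 (8.83% of all genes), and 4 of 6 above 0 for anxious against less anxious mice. Less anxious mouse 3 had the highest Htr2c (163 CPM) and Htr1b (16.6 CPM) with the lowest striatal-type (184 CPM) and choroid plexus (21.6 CPM) sums of its state. The part of all these cells in the values of Htr2c and Htr1b was not tested. Markers with an unadjusted p under 0.05 across the states in the remaining lists included Neurod2, Tbr1, Tac2, Calb2, Prox1, Prl, Gh, Cga and Flt1.

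The receptors were next fitted against each behavior measure as a number, which does not use the states. The slope is the change in log2 level per SD of the measure, and 70 pairs of receptor and measure were fitted in all. None of the 70 was called, with adjusted p-values (edgeR) from 0.488 to 1, and 7 had an unadjusted p under 0.05. By measure, 1 of 10 receptors passed the unadjusted threshold for LD time in the light as a percentage (3.55% of all genes), 2 for LD distance in the light (5.8%), 0 for EPM open-arm time (5.84%), 2 for EPM total entries (6.97%), 1 for the box:zone ratio of the SIT in its first 3 min (7.65%), 0 at 5 min (6.56%) and 1 at 10 min (8.05%). The adjusted threshold was passed by 0.00742% of all genes for time in the light, 0% for total entries, open-arm time and distance in the light, 0.015% for the 3-min ratio, 0.0111% for the 5-min ratio and 0.0223% for the 10-min ratio. The number of pairs at an unadjusted p under 0.05 was 3 without mouse 3, 4 without mouse 12 and 14 without mouse 6.

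Htr7, a Gs-coupled receptor, was in 3 of the 7 pairs. It had 18.3 CPM in mouse 3, 15.0 in mouse 6 and 9.30 (mouse 4) to 13.6 CPM in the other 9. Mouse 6 spent the most time in the light (46.6%) and mouse 3 the next most (33.5%), against 12.4% to 32.6% in the other mice. The slope of Htr7 was 0.15 ± 0.0689 (SE) with time in the light (edgeR, unadjusted p = 0.0426, adjusted p = 0.9997) and 0.17 ± 0.0650 with distance in the light (unadjusted p = 0.0206, adjusted p = 0.848). With the 10-min box:zone ratio, which was 2.62 in mouse 3 and 0.495 to 1.58 in the others, the slope was 0.15 ± 0.0649 (unadjusted p = 0.0344, adjusted p = 0.584). Mouse 3 carried much of these values, since without it the slopes were 0.11 (unadjusted p = 0.110), 0.12 (unadjusted p = 0.0776) and 0.02 (unadjusted p = 0.8288). The 10-min ratio on ranks gave a slope of 0.12 (unadjusted p = 0.132).

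No slope of Htr2c passed the adjusted threshold. The slope of Htr2c with distance in the light was 0.12 ± 0.0496 (SE, edgeR, unadjusted p = 0.0341, adjusted p = 0.848). Of the 11 mice with a state, mouse 2 had both the shortest share of distance in the light (16.6%) and the lowest Htr2c (104.8 CPM), whereas mouse 6, with the largest share (41.9%), had 134 CPM, and mouse 3 (37.8%) had 163 CPM. The slope was 0.08 without mouse 2 (unadjusted p = 0.151), 0.08 without mouse 3 (unadjusted p = 0.106) and 0.05 (unadjusted p = 0.351) when mouse 5 was included.

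Total entries into the arms of the EPM, a measure of activity as well as of anxiety, gave a pair for Htr1a and one for Htr2a. The 11 mice made 6 (mouse 2) to 42 (mouse 12) entries. Htr2a was at 2.96 CPM in mouse 2, 4.40 in mouse 1, 5.72 in mouse 6 and 5.84 in mouse 12, with its lowest value of 2.71 CPM in mouse 4 at 24 entries. Its slope was 0.24 ± 0.0847 (SE, edgeR, unadjusted p = 0.0115, adjusted p = 0.606), and 0.17 (unadjusted p = 0.0787) without mouse 2. Htr1a was highest in mouse 2 (24.6 CPM) and lowest in mouse 12 (13.9 CPM), with 15.5 to 19.6 CPM in the other 9. The slope of -0.13 ± 0.0585 (SE, edgeR, unadjusted p = 0.0425, adjusted p = 0.7003) rested on mouse 2 and was -0.0079 (unadjusted p = 0.900) without it.

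Htr4 had the steepest slope of the 70 in size, with the box:zone ratio in the first 3 min of the SIT. That ratio, of time close to the stranger mouse over time at a distance, was 1.84, 1.70 and 1.45 in mice 9, 3 and 10, which had 2.29, 2.78 and 1.59 CPM of Htr4. At the other end, mouse 7 had a ratio of 0.236 with 5.37 CPM and mouse 12 one of 0.691 with 4.90 CPM. Mice 6, 2 and 1, next in order with ratios of 0.797, 0.801 and 0.943, had 2.79, 4.03 and 3.02 CPM. Mouse 11, with the highest Htr4 (6.31 CPM), was in the middle with a ratio of 0.989, and mouse 8, with a ratio of 1.15, had 4.28 CPM. The slope was -0.39 ± 0.140 (SE, n = 10 mice, since mouse 4 had no value at 3 min; edgeR, unadjusted p = 0.0139, adjusted p = 0.488). It lay between -0.45 and -0.33 in the 10 fits that each left out 1 of these mice, with an unadjusted p of at most 0.0498. At 5 and 10 min the slopes of Htr4 were -0.18 ± 0.157 (unadjusted p = 0.260) and -0.15, and with open-arm time 0.30 ± 0.146 (unadjusted p = 0.0610).

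**Figure D4:**
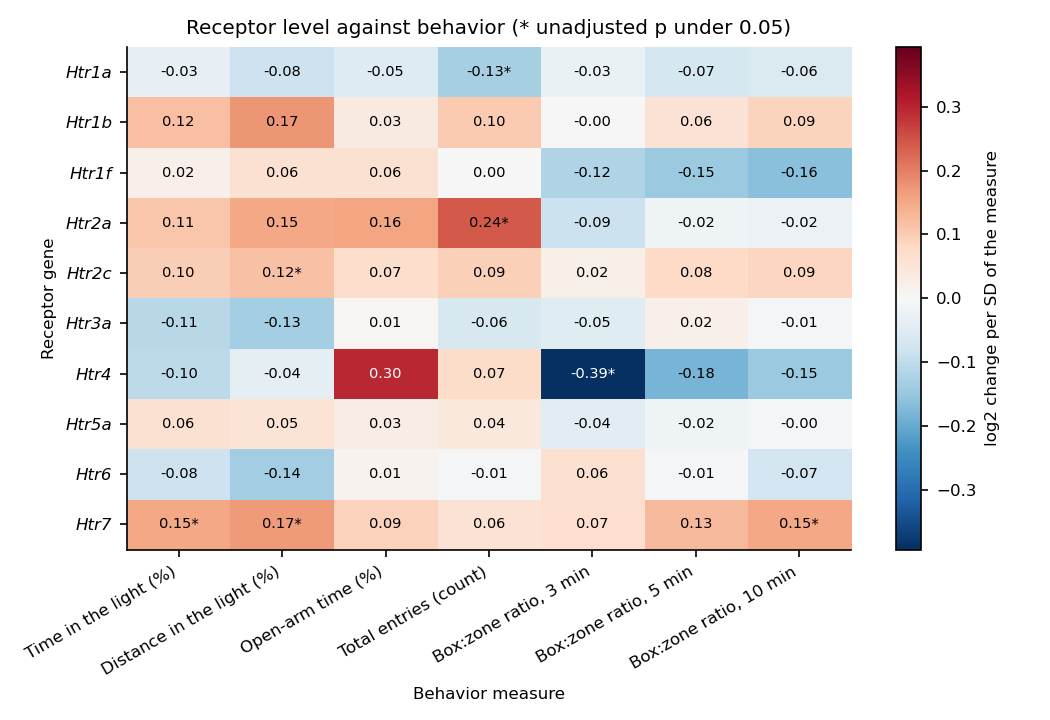
Change in log2 level per SD of each behavior measure for the 10 receptors (edgeR, 11 mice, 10 at 3 min), as numbers on a color scale centered on 0, with an asterisk at an unadjusted p under 0.05. The 7 asterisks include 3 for Htr7 (0.15 to 0.17), and the cells of largest size belong to Htr4 (-0.39 at 3 min).

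**Figure D5:**
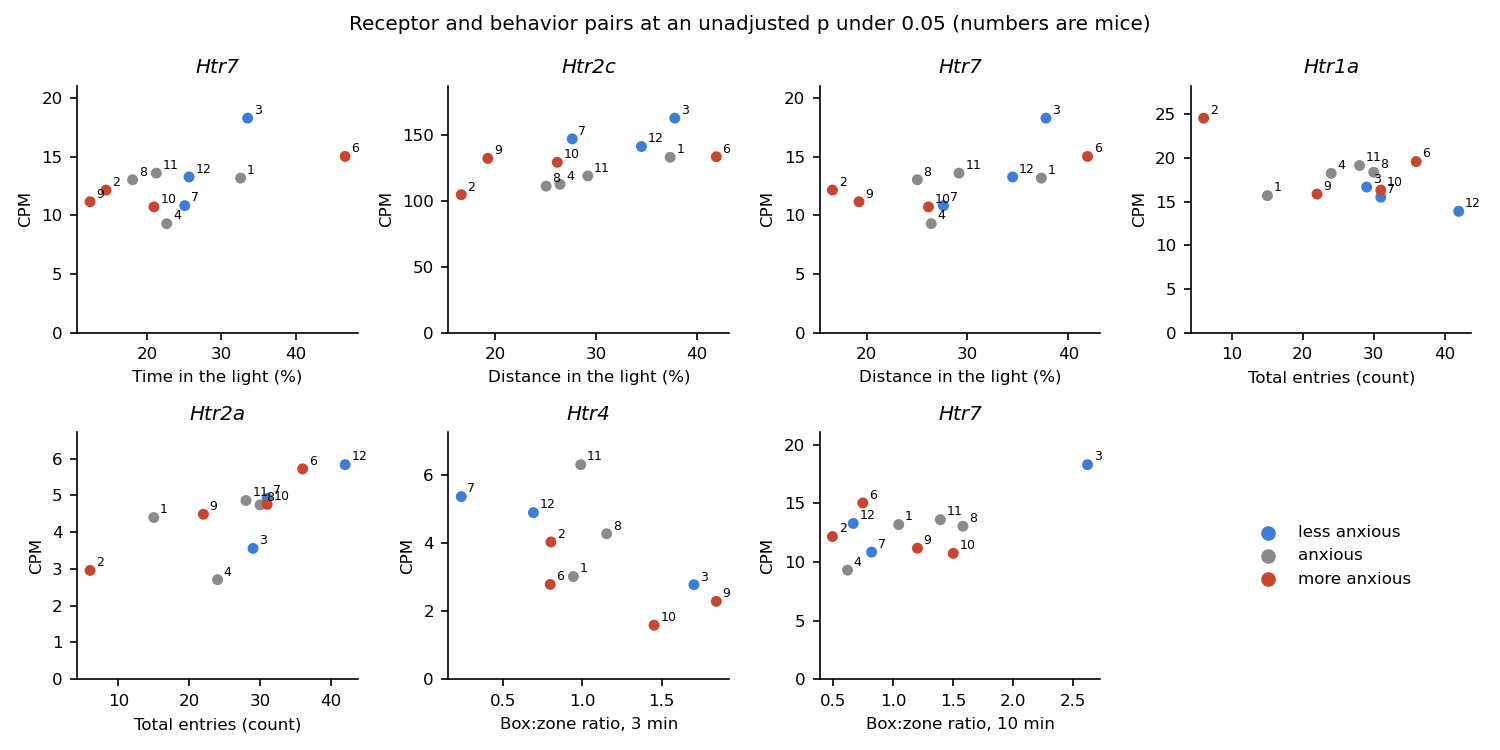
CPM of the receptor (axis from 0) against the behavior measure for the 7 pairs at an unadjusted p under 0.05, with 1 numbered point per mouse colored by state. Mouse 2 (6 entries, 24.6 CPM of Htr1a) and mouse 3 (10-min ratio 2.62, 18.3 CPM of Htr7) stand apart from the other mice in their panels.

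Htr1b, Htr1f, Htr3a, Htr5a and Htr6 were in none of the 7 pairs. The slopes of Htr5a were small, with 0.06 ± 0.0489 (SE) for time in the light and 0.03 ± 0.0490 for open-arm time, and those of Htr1b were 0.12 ± 0.118 and 0.03 ± 0.113. None of the 7 slopes of Htr1b, the receptor with the smallest p between more and less anxious mice, had an unadjusted p under 0.05.

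Pairs of receptors were compared over the 11 mice by the log2 of their CPM, in 45 pairs of which 20 had a positive and 25 a negative Pearson correlation. None passed a Benjamini-Hochberg adjusted permutation p of 0.05 over the 45, and 6 had an unadjusted permutation p under 0.05 (two-sided, 100000 permutations). Htr1b was in 4 of these 6. The 6 were Htr1b with Htr6, Htr2c, Htr3a and Htr1a, and Htr2c with Htr1a and Htr3a. Htr1b and Htr3a had r = -0.662 (permutation p = 0.0223, adjusted p = 0.216). Their Spearman rho was -0.791 (permutation p = 0.00546, adjusted p = 0.246). Without the 2 mice farthest from the median of Htr1b, this r was -0.508. Htr1a and Htr1b had r = -0.673 (permutation p = 0.0168, adjusted p = 0.216). Htr2c and Htr3a had r = -0.643 (permutation p = 0.0322, adjusted p = 0.241). No share over pairs of other genes is given here, so the number of such pairs is a description only. Htr1b and Htr6 had r = -0.746 (permutation p = 0.0101, adjusted p = 0.216; Spearman rho = -0.709, permutation p = 0.0177, adjusted p = 0.337), and r = -0.798 without the 2 mice farthest from the median of Htr1b. Htr1b and Htr2c had r = 0.680 (permutation p = 0.0240, adjusted p = 0.216; rho = 0.627, permutation p = 0.0449, adjusted p = 0.337), and r = 0.593 without the 2 mice farthest from the median of Htr1b. Htr1a, with the opposite sign in the states, had r = -0.698 with Htr2c (permutation p = 0.0160, adjusted p = 0.216; rho = -0.609, permutation p = 0.0525, adjusted p = 0.337) and r = -0.538 without the 2 mice farthest from the median of Htr1a. These mice belong to 3 states made from the same data, and differences between states enter these correlations.

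The genes whose log2 CPM was most like that of a receptor over the 11 mice, among 15890 genes of at least 1 mean CPM, are given as a description with no test. For Htr2c they were Mgat5 (Pearson r = 0.930), Slc30a4 (0.923) and Kcna2 (0.912), and for Htr1b Stxbp3 (0.929), As3mt (0.921) and Ncapg2 (0.911). For Htr4 they were Cfap300 (0.927), Gm2762 (0.924) and Gm16638 (0.884), and for Htr7 they included Asb18 (0.913) and Zfp941 (0.905). The first genes for the other receptors were Hes7 for Htr1a (0.887), Gm7972 for Htr1f (0.893), Dgki for Htr2a (0.914), Nop2 for Htr3a (0.944), Gm37499 for Htr5a (0.900) and Sf3b5 for Htr6 (0.922).

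The other genes of serotonin signaling were described by list. Of 4 further receptor genes (Htr1d, Htr2b, Htr3b and Htr5b), 0 were called across the states by edgeR, and 1, Htr1d, had an unadjusted p under 0.05 (0.0171). All shares of genes passing without adjustment in these lists are to be read against 6.35% of all genes across the states, and single genes are given as values. Htr1d, a Gi-coupled receptor close to Htr1b, had 4.94 CPM ± 2.60 (SD, n = 3) in less anxious, 2.10 ± 0.841 (n = 4) in anxious and 2.86 ± 0.904 (n = 4) in more anxious mice. Htr2b (3 to 12 estimated counts) and Htr3b (1 to 5) were near the limit of counting, and Htr3b encodes the partner subunit of Htr3a.

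Of 9 genes of serotonin synthesis, transport and breakdown, 0 were called and 1 had an unadjusted p under 0.05. This was Ddc, the decarboxylase that makes both serotonin and dopamine, with 12.1 CPM ± 0.502 (SD, n = 3) in less anxious, 11.1 ± 2.36 (n = 4) in anxious and 7.52 ± 2.60 (n = 4) in more anxious mice (edgeR, unadjusted p = 0.0279). Of 10 partners and regulators of the receptors, 0 were called and 1 passed without adjustment, Arrb2, a beta-arrestin that binds activated receptors, with 41.1 CPM ± 5.38, 50.8 ± 3.06 and 52.3 ± 2.50 in the same order (edgeR, unadjusted p = 0.0107). Of 19 G proteins and effectors, edgeR called 0 and 2 passed without adjustment, whereas DESeq2 called 1, Gnai2, and none of the genes of the other serotonin lists to which it gave an adjusted p. Gnai2, an inhibitory G protein subunit through which 5-HT1 receptors can signal, had 135 CPM ± 15.1 in less anxious, 145 ± 34.7 in anxious and 279 ± 64.2 in more anxious mice, with an adjusted p across the states of 0.114 by edgeR and 5.71e-07 by DESeq2. Adcy5, an adenylyl cyclase abundant in striatal-type neurons, had 239 CPM ± 54.1, 178 ± 20.1 and 184 ± 8.46 (edgeR, unadjusted p = 0.0130).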

How the data were processed

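Amygdala mRNA of 12 mice was sequenced on 1 Illumina NextSeq500 run with single-end reads of 75 bp. The authors quantified transcripts with Salmon and collapsed them into genes by tximport, and used alignments to mm10 for quality checks. The deposited values are estimated counts (expected counts in such tools), not normalized and stored as whole numbers (0 values were not whole). Tool versions, annotation release and use of strand in counting are not given in the sources used here. Gene names and lengths came from GENCODE M21, which held 47310 of 47729 genes (99.1%), and upstream sequences from the RefSeq table of GRCm38.p6, which held 8 of the 10 receptors.

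CPM used edgeR's TMM factors of the 11 mice with a state, and for mouse 5 those fitted over all 12 mice. CPM per kb divided CPM by the union of a gene's exons. Tests used edgeR 4.0.16 (quasi-likelihood F-test, robust, at least 10 reads over 11 mice, Benjamini-Hochberg) in R 4.3.3, with the score on the first principal component of variance-stabilized counts (19.9% of the variance) as covariate for the states and none for behavior. DESeq2 1.42.0 was the alternative, and other alternatives covered scaling, filter, covariate, robust option, coding of states or measures, mouse 5 and each mouse left out. The procedures were tested on simulated data. Python 3.11.15, pandas 2.3.3, numpy 2.4.6 and matplotlib 3.10.9 were used for the rest.

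All 10 receptors were named, other listed genes where their unadjusted p across the states was under 0.05, and pairs of receptor and measure where theirs was under 0.05. Some genes that these rules name are not reported here. The comparisons of pairs of receptors and the CCAAT box were added later. The receptors and gene lists were chosen with earlier results of these data known. Mice are the replicates, with totals of 31745630 to 45142355 estimated counts. No paired analysis was possible because each mouse belongs to 1 state and the replicate numbers within a state are only names.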

Additional observations from a re-analysis of the deposited data

Results flagged for a closer look

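In 20 sets of 4 mice (the 10 receptors in the anxious and in the more anxious mice), 3 values stood apart from the other 3 mice of their state by Dixon's criterion at the 95% level, where chance gives about 1 in 20. Mouse 10 had 14.02 CPM of Htr1b, with the next more anxious mouse at 9.41 CPM. Mouse 2 had 104.8 CPM of Htr2c, and the nearest more anxious mouse had 129 CPM. Mouse 4 had 9.30 CPM of Htr7, and the nearest anxious mouse had 13.1 CPM. The less anxious mice were not checked in this way.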

How the results depend on the processing

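In the alternatives run, 0 receptors were called in any comparison of states and 0 of 70 pairs of receptor and measure, including DESeq2's likelihood ratio test and each mouse left out. The number of all genes called across the states did depend on the fit. edgeR called 2, and the count was 9 with no filter, 0 with a filter at a mean of 1 CPM, 1 without the robust option, 0 without the covariate, 22 with the order of the states as a number, 205 with DESeq2, and 0 to 4 with 1 mouse left out. Receptors at an unadjusted p under 0.05 across the states numbered 0 to 2 with 1 mouse left out (0 without mouse 7) and 0 to 3 for more against less anxious mice. For Htr4 in more against less anxious mice, the unadjusted p by edgeR was 0.0507 with the filter at a mean of 1 CPM. Without the covariate it was 0.0514. Pairs of receptor and measure at an unadjusted p under 0.05 numbered 3 to 14 with 1 mouse left out and 6 to 9 in the other alternatives. For more against less anxious mice, the log2 fold change of Htr3a (0.01) was -0.025 with the order of the states as a number and -0.084 to 0.10 with 1 mouse left out, being below 0 without mouse 2, mouse 9 or mouse 12. That of Htr2a (-0.12) was -0.26 to 0.063 with 1 mouse left out, above 0 without mouse 2 or mouse 12, and that of Htr7 (-0.16) was -0.40 to 0.029, above 0 without mouse 3. With 3 or 4 mice a state, no receptor's difference between more and less anxious mice could be told from none after adjustment. The smallest adjusted p there was 0.426, for Htr1b (edgeR). Htr1f had as few as 45 estimated counts in a mouse.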

Other observations

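Mouse 5, which has no predicted anxiety state in the labels and stood apart in the study's first look at the data, had 159.7 CPM of Htr2c, within the range of the less anxious mice, and 13.1 CPM of Htr1b, within the ranges of both the anxious and the more anxious mice. Its total of 32682574 estimated counts was within the range of the others, and a read fell on 23768 genes, compared with 26378 to 28196 in the others. Its other receptors had 19.8 CPM (Htr1a), 2.52 CPM (Htr1f), 4.50 CPM (Htr2a), 10.1 CPM (Htr3a), 4.07 CPM (Htr4), 15.4 CPM (Htr5a), 2.76 CPM (Htr6) and 10.8 CPM (Htr7), each within the range of the 11 other mice.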
